A study of Homo sapiens with 10 samples.

Results

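The 29 genes described here encode enzymes of the mevalonate and sterol pathway, the sterol-sensing regulators of SREBP-2, and proteins of sterol uptake, transport and storage. They were chosen by symbol from what each is known to do, and all 29 were found among the 46427 genes measured. Of these, 19 are enzymes (8 before squalene, 3 from squalene to lanosterol, 8 from lanosterol to cholesterol), 4 are regulators and 6 belong to uptake, transport and storage. All 29 passed the filter on low counts in each fit, for example among 18398 genes in the comparison of drug-resistant with parental cells.

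Poly(A) RNA of H460 and A549, established human lung cancer cell lines, was sequenced in 10 libraries to study cells that survive chemotherapy and cells that survive in suspension. Of H460, 3 libraries came from parental cells grown attached (2D) in RPMI with fetal bovine serum. Drug-resistant H460 cells were those that re-attached after 4 µM cisplatin (CR, 1 library), 5 nM paclitaxel (PR, 2 libraries) or 0.5 µM doxorubicin (DR, 1 library) for 3 days and fresh medium for 3 more days, with RNA taken on day 8. Tumor spheroid (TS) cells, 1 library of each line, grew on non-adhesive plates in RPMI with B27 and the growth factors bFGF and EGF, and A549 2D cells gave 1 library. The drug-resistant cells are survivors of a single exposure, not selected clones. No serum is listed for the TS medium, and TS cells went through at least 3 passages in it. Attachment, medium and passage in suspension therefore cannot be told apart in the comparison of TS with 2D cells. Nothing says that libraries of a group came from separate cultures, so p-values measure only the spread between these libraries.

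Cells build cholesterol from acetyl-CoA through mevalonate, farnesyl diphosphate, squalene and lanosterol. When sterol in the endoplasmic reticulum is low, SCAP carries the transcription factor SREBP-2 (gene SREBF2) to the Golgi, where it is cleaved to its active form. When sterol is plentiful, INSIG proteins hold SCAP back. SREBP-2 binds sterol regulatory elements, usually beside boxes of the factor NF-Y, in promoters of the pathway, among them those of INSIG1 and SREBF2 themselves.

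Read counts per library summed to between 59499787 and 89541774. The epithelial keratins KRT8 and KRT18 had an FPKM (fragments scaled for transcript length and library size) of at least 190.4 in every library. Another keratin, KRT19, ranged from 138.3 to 738.3 over the H460 libraries. Its A549 values were lower, at 3.57 (2D) and 68.3 (TS). EPCAM was at or below 1.04 in all 10 libraries, and CDH1, the gene of E-cadherin, did not exceed 0.0266 in any H460 library. The A549 values of CDH1 were higher, at 9.29 (2D) and 11.9 (TS). For 6 blood and endothelial markers, the summed FPKM was between 0 and 0.354. Among the parental libraries, replicate 2 was the highest for 22 of the 29 genes and replicate 3 the lowest for 18. In bulk RNA, fewer cells of a kind and less RNA per cell cannot be told apart.

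Promoters are shown for the 3 genes with the largest fitted differences between TS and 2D cells (TM7SF2, HMGCS1 and MSMO1). Shown as well are those of MYLIP, which had the largest fitted difference the other way, and of SREBF2. Among the promoters found, only that of SREBF2 matched the letters searched for the sterol regulatory element. The genes shown were picked after their values were seen. The sequences come from RefSeq, build GRCh38.p14, and end before the gene start of both RefSeq and GENCODE 29. All but that of MYLIP are therefore shorter than the 250 bases counted below. In the full 250 bases, HMGCS1 held 2 NF-Y boxes and MSMO1 held 4. Capitals mark NF-Y boxes (CCAAT on either strand) and, in SREBF2, the sterol regulatory element (TCACNCCAC on either strand).
HMGCS1, chr5:43313513-43313662, minus strand: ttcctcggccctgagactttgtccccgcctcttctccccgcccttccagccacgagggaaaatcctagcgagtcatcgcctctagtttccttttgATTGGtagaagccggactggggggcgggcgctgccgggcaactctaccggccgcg
TM7SF2, chr11:65111622-65111844, plus strand: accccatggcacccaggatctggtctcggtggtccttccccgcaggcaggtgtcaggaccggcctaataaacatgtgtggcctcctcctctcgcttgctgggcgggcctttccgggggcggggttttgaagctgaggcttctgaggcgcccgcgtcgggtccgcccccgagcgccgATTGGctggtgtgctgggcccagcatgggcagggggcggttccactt
MSMO1, chr4:165327419-165327622, plus strand: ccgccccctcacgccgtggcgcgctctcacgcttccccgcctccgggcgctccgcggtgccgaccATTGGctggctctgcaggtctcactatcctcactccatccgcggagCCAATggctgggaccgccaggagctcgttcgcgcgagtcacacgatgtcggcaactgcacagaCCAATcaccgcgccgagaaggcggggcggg
SREBF2, chr22:41832855-41833078, plus strand: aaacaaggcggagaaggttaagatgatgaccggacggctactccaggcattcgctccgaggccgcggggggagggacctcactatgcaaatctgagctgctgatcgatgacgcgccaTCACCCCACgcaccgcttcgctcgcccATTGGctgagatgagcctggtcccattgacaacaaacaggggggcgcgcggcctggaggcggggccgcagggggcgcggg
MYLIP, chr6:16128836-16129085, plus strand: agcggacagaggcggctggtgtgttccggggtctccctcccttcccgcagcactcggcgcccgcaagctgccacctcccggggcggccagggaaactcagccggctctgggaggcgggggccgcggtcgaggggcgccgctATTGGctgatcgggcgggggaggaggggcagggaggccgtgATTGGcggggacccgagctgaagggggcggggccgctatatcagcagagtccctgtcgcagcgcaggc
Promoters were found for 26 of the 29 genes. Within the 250 bases before the RefSeq start, 19 of the 26 (73.1%) held at least 1 CCAAT box, and 12 (46.2%) held 2 or more. Of 27305 RefSeq promoters of the same length, 33.0% held at least 1 box and 10.0% held 2 or more. The letters searched for the sterol regulatory element matched in 1 of the 26 (3.85%) and in 0.875% of all promoters. A match of letters is not a measured binding site, and the lack of a match does not show that an element is absent. MYLIP, whose fitted differences were opposite in sign to those of most enzymes, also held 2 boxes in its window.

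Drug-resistant cells had lower levels of most enzymes, of the regulator INSIG1 and of the cholesterol carrier STARD4. With the quasi-likelihood test of edgeR and Benjamini-Hochberg adjustment over all genes (adjusted p under 0.05), 17 of the 29 genes fell and 1 rose in the 4 drug-resistant against the 3 parental libraries. Over all genes tested, 15.4% fell and 18.4% rose. The median fitted log2 fold change was -0.72 over the 29 genes and 0.06 over all genes. FPKM did not overlap between the groups for 13 of the genes that were lower in all 4 drug-resistant libraries, a pattern seen in 13.6% of all genes tested. It was higher in all 4 for 3 genes, TM7SF2, NPC1 and MYLIP, a pattern seen in 25.8% of all genes tested.

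Before squalene, 6 of 8 enzymes fell. ACAT2, which joins acetyl-CoA units at the entry of the pathway, lies at chr6:159760328-159779055 (GRCh38, GENCODE 29). Its FPKM was 28.9, 41.7 and 27.2 in the parental libraries. CR cells had 5.66, PR cells 8.49 and 6.72, and DR cells 7.53. The 4 drug-resistant values lay far below the parental ones and close to each other. Fitted to the counts, ACAT2 fell by 2.31 on the log2 scale (SE 0.19, adjusted p = 0.000134 by edgeR). FDPS, the farnesyl diphosphate synthase and the enzyme with the highest FPKM in these H460 libraries, had 92.9, 149.9 and 86.8 in parental cells. CR cells had 62.3, PR cells 52.4 and 55.9, and DR cells 73.1, so the groups did not overlap although the gap was narrow. FDPS fell by 0.94 on the log2 scale (SE 0.22, adjusted p = 0.00946 by edgeR).

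HMGCS1, which makes the HMG-CoA that is reduced to mevalonate, fell less. Its FPKM was 10.8, 13.4 and 7.99 in parental cells. CR cells had 5.81, PR cells 8.04 and 7.79, and DR cells 7.10. PR replicate 1 lay just above parental replicate 3, so the groups overlapped. The log2 fold change of HMGCS1 was -0.72 (SE 0.19, adjusted p = 0.0145 by edgeR). The mevalonate kinase MVK, the mevalonate diphosphate decarboxylase MVD and the isomerase IDI1 also fell, with log2 fold changes of -0.94, -0.66 and -0.92. MVD was called in 5 of 14 settings of the test, with an adjusted p of up to 0.161. The phosphomevalonate kinase PMVK (-0.28, adjusted p = 0.327) and GGPS1, which leads off to geranylgeranyl diphosphate (0.23, adjusted p = 0.45), did not pass the edgeR test. GGPS1 had an FPKM of 9.78, 13.5 and 5.94 in parental and 11.3 to 13.4 in drug-resistant cells.

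All 3 enzymes from squalene to lanosterol fell. FDFT1, the squalene synthase, had an FPKM of 38.4, 60.5 and 34.0 in parental cells. CR cells had 21.7, PR cells 20.5 and 22.6, and DR cells 26.1. Every drug-resistant library was below every parental library. The log2 fold change of FDFT1 was -1.05 (SE 0.20, adjusted p = 0.00373 by edgeR). It was -0.89 for LSS, the lanosterol synthase, and -0.68 for SQLE, the squalene epoxidase. SQLE was called in 4 of the 14 settings, with an adjusted p of up to 0.139. Its FPKM of 7.22 to 10.1 in drug-resistant cells overlapped parental replicate 3, at 8.17.

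From lanosterol to cholesterol, 3 of 8 enzymes fell and 1 rose. EBP, the sterol isomerase at chrX:48521158-48528716, had an FPKM of 56.1, 58.8 and 40.5 in parental cells. CR cells had 13.4, PR cells 13.9 and 11.7, and DR cells 15.5. No drug-resistant library came near the lowest parental one. By edgeR, EBP fell by 2.03 on the log2 scale (SE 0.19, adjusted p = 0.000183). DHCR7, the reductase that makes cholesterol from 7-dehydrocholesterol, fell by 0.93 on the log2 scale, and CYP51A1, the lanosterol demethylase, fell by 0.77. NSDHL and HSD17B7, which act in the removal of the C4 methyl groups, had log2 fold changes of -0.43 and -0.44 (adjusted p = 0.0702 and 0.167 by edgeR). MSMO1, the C4 methyl oxidase, and SC5D, the desaturase before DHCR7, had -0.34 and -0.03 and did not pass either.

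TM7SF2, a sterol C14 reductase, was the only one of the 29 genes that rose in this fit. NPC1 was called higher in 5 of the 14 settings (DESeq2, upper-quartile scaling, both limma-trend settings and the covariate for the form of the library name), and NPC2 and MYLIP with upper-quartile scaling alone. The FPKM of TM7SF2 was low in parental cells, at 0.387, 0.444 and 0.881. CR cells had 1.34, PR cells 1.19 and 1.76, and DR cells 1.19. All 4 drug-resistant libraries were above the parental ones. The log2 fold change of TM7SF2 was 1.19 (SE 0.36, adjusted p = 0.0286 by edgeR), and the adjusted p was between 0.00447 and 0.105 over 14 settings of the test, of which 8 called it.

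Among the regulators, INSIG1 and SREBF2 fell. INSIG1, at chr7:155297776-155310235, had an FPKM of 8.17, 25.9 and 13.9 in parental cells, a 3.17-fold spread. CR cells had 2.87, PR cells 4.97 and 5.84, and DR cells 4.02. The groups did not overlap in spite of that spread. Its log2 fold change was -1.96 (SE 0.33, adjusted p = 0.0018 by edgeR). INSIG2, the second INSIG gene, had an FPKM of 2.92, 5.18 and 3.28 in parental and 4.18 to 5.09 in drug-resistant cells, with a log2 fold change of 0.17 (adjusted p = 0.572). SREBF2 had an FPKM of 17.7, 19.0 and 29.4 in parental and 11.8 to 15.7 in drug-resistant cells. The log2 fold change of SREBF2 was -0.79 (SE 0.23, adjusted p = 0.0226 by edgeR). SCAP stayed between 10.2 and 15.4 in all 7 libraries, with a log2 fold change of -0.02 (adjusted p = 0.934).

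Of the 6 uptake, transport and storage genes, 3 fell. STARD4, a carrier of cholesterol in the cytosol, had an FPKM of 9.19, 21.9 and 14.3 in parental cells. CR cells had 2.92, PR cells 4.30 and 3.77, and DR cells 3.81. The groups were well apart. In the edgeR fit STARD4 fell by 2.02 (log2, SE 0.26, adjusted p = 0.000465). TMEM97, the sigma-2 receptor, which binds NPC1, fell by 1.86 (SE 0.22, adjusted p = 0.000375), and SOAT1, which esterifies cholesterol for storage, fell by 0.89 (SE 0.19, adjusted p = 0.00534). NPC1 and NPC2, which move cholesterol out of the lysosome, had log2 fold changes of 0.53 and 0.43, and MYLIP, a ubiquitin ligase that degrades lipoprotein receptors, had 0.47. None of the 3 passed the edgeR test (adjusted p = 0.0626, 0.115 and 0.0957). The FPKM of NPC1 was 11.0, 7.78 and 9.98 in parental cells. CR cells had 11.9, PR cells 17.2 and 18.4, and DR cells 12.9. That of MYLIP was 2.70, 2.85 and 2.47 in parental cells. CR cells had 2.86, PR cells 4.95 and 4.61, and DR cells 3.34, so CR lay only just above the highest parental library.

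**Figure D1:**
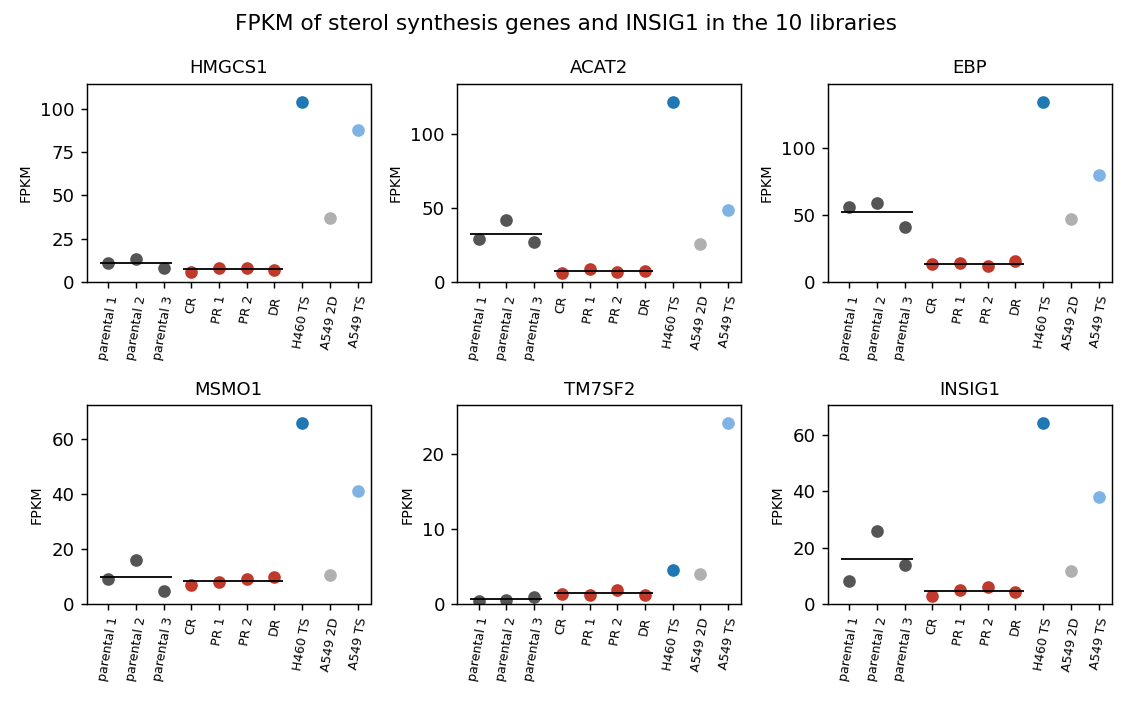
FPKM (linear axes from 0) of 5 synthesis enzymes and INSIG1 in each of the 10 libraries, with 1 point per library and black lines at the means of the parental and drug-resistant groups. ACAT2 and EBP show no overlap between the 3 parental and 4 drug-resistant libraries, and the H460 TS library lies above every other H460 library, with 122.1 for ACAT2 and 134.3 for EBP.

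More than 2-fold lower on log2(FPKM + 1) than the parental mean were 5 of the 29 genes in CR, PR and DR cells alike (against 4.85%, 4.05% and 3.91% of all genes), and 0 were more than 2-fold higher (against 4.02%, 5.47% and 3.95%). The added 1 understates changes of genes with low values. The 5 were ACAT2, EBP, INSIG1, STARD4 and TMEM97 in each case. With CR and DR represented by 1 library each, these differences have no replicate check. The median difference of the 29 genes was -0.76 for CR and -0.43 for PR as well as DR. For PR alone against the parental libraries, edgeR called 13 of the 29 genes lower and 0 higher, against 10.7% and 17.4% of all genes. The 13 were ACAT2, MVK, IDI1, FDPS, FDFT1, LSS, CYP51A1, EBP, DHCR7, INSIG1, STARD4, SOAT1 and TMEM97. Without PR replicate 1 the count was 4, without PR replicate 2 it was 2, and without parental replicate 2 it was 8. Between PR and the CR and DR cells, edgeR called 0 of the 29 genes (0.245% of all genes), 6 had an unadjusted p under 0.05 (23.5% of all genes) and DESeq2 called 1, FDPS.

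The 17 lower and 1 higher calls depended in part on single libraries. Without parental replicate 2, 11 of the 29 genes were called. Of the 14 settings of the test, 4 called SQLE, 5 MVD, 8 TM7SF2, 9 SREBF2, 10 IDI1, 11 HMGCS1, and 13 MVK and CYP51A1. The 10 genes called in each setting were ACAT2, FDPS, FDFT1, LSS, EBP, DHCR7, INSIG1, STARD4, SOAT1 and TMEM97. With upper-quartile scaling, which shifted the all-gene median from 0.06 to 0.23, 14 of the 29 genes were lower and 4 higher, and 67.4% instead of 54.4% of all calls were higher. In the library names, a hyphen follows the letters Hjang for parental replicate 2 and 3 drug-resistant libraries, but not for the others. In both forms of name, all 18 called genes kept their direction, with a median log2(FPKM + 1) difference over the 29 genes of -0.83 with the hyphen and -0.41 without. The 18 genes were called on these same libraries, so their kept direction is no separate check on the form of name. A list of 5 proliferation genes (MKI67, MCM2, MCM3, PCNA and CCNB1) fell in 5 of 5 with a median log2 fold change of -2.29, and its summed FPKM was between 321.4 and 521.5 in parental and between 114.6 and 158.6 in drug-resistant cells. Its part in the lower sterol genes was not tested.

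**Figure D2:**
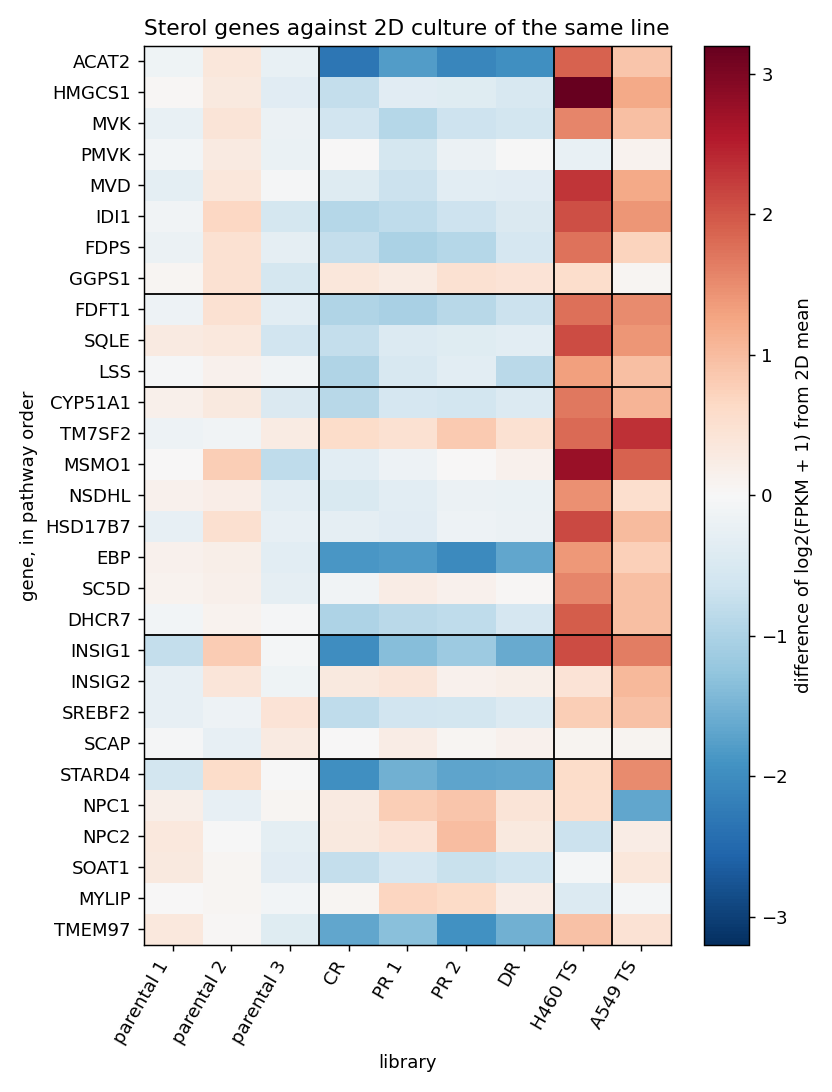
Difference in log2(FPKM + 1) of each of the 29 genes (rows, ordered by role) in each library (columns) from the mean of 2D libraries of its line, with blue for lower and red for higher. The drug-resistant columns are mostly blue, with medians of -0.76 for CR and -0.43 for both PR and DR, and the H460 TS column is red for most enzymes, with a median of 1.56.

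TS cells of both lines had higher values than 2D cells for all enzymes but PMVK, and the size of the fitted difference was largest at HMGCS1, MSMO1 and TM7SF2. Taking the 2 lines as samples with the cell line as a covariate, edgeR called 0 of the 29 genes in either direction (0.191% of all genes). The smallest adjusted p was 0.0584, for TM7SF2. An unadjusted p under 0.05 was found for 22 of the 29 genes, all with a positive difference, against 4.43% of all genes with a higher value. DESeq2 called 18 of the 29 genes higher (1.69% of all genes), the H460 libraries alone 16 (1.15%) and a fit of all 10 libraries, added after seeing the data, 16 (1.57%). Limma-trend and edgeR without a filter on low counts called 1, TM7SF2. These fits share libraries, and in H460 alone 1 TS library stands against the 3 parental libraries, whose spread is the only one measured. The 15 genes called by all 3 were ACAT2, HMGCS1, MVK, MVD, IDI1, FDPS, FDFT1, SQLE, LSS, CYP51A1, TM7SF2, MSMO1, HSD17B7, SC5D and DHCR7. The 18 genes called by DESeq2 had fitted log2 differences of 1.18 to 2.86 in the edgeR fit and adjusted p of 0.0584 to 0.184. The parental libraries serve as controls here as well as for the drug-resistant cells.

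The FPKM of the H460 TS library was above all 3 parental libraries, and that of the A549 TS library above A549 2D, for 23 of the 29 genes, a pattern seen in 11.5% of all genes tested. Both TS libraries were below for 1 gene, MYLIP, a pattern of 11.3%. On log2(FPKM + 1), 18 of the 29 genes were more than 2-fold higher in the H460 TS library (1.25% of all genes) and 12 in the A549 TS library (4.33%). More than 2-fold lower were 0 in H460 TS (1.33% of all genes) and 1, NPC1, in the A549 TS library (2.04%). The median difference was 1.56 for H460 TS and 0.96 for A549 TS. The summed FPKM of the 19 enzymes was 413.6, 564.2 and 344.7 in the parental libraries and 1474 in H460 TS cells, and for A549 it went from 445.2 (2D) to 940.2 (TS).

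HMGCS1 had an FPKM of 10.8, 13.4 and 7.99 in parental H460 and 104.3 in H460 TS cells, 9.70 times the parental mean. In A549 it was 37.1 in 2D and 87.6 in TS cells, 2.36 times as high. A549 2D cells already had 3.45 times the HMGCS1 level of parental H460 cells. The fitted log2 difference of HMGCS1 over both lines was 2.61 (SE 0.42, adjusted p = 0.0922 by edgeR).

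MSMO1 had an FPKM of 8.90, 16.0 and 4.64 in parental H460 and 65.8 in H460 TS cells, and for A549 10.3 (2D) and 41.2 (TS). The TS libraries stood above all 2D libraries of their line. Its fitted log2 difference was 2.50 (SE 0.42, adjusted p = 0.101 by edgeR). TM7SF2 was 0.387, 0.444 and 0.881 in parental and 4.44 in H460 TS cells, and for A549 3.92 (2D) and 24.0 (TS), with a fitted log2 difference of 2.86 (SE 0.38, adjusted p = 0.0584 by edgeR). TM7SF2 thus lay above its 2D values in drug-resistant and TS cells alike.

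SQLE, the squalene epoxidase, had an FPKM of 16.0, 16.7 and 8.17 in parental and 58.6 in H460 TS cells, and for A549 26.5 (2D) and 72.0 (TS). FDFT1 was 149.1 in H460 TS against 34.0 to 60.5 in parental cells, and 143.4 in A549 TS against 49.3 in 2D cells. Their fitted log2 differences were 1.89 and 1.70 (SE 0.30 and 0.26). The remaining enzymes called by DESeq2 had fitted differences between 1.18 (NSDHL and EBP) and 2.09 (MVD).

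INSIG1 had an FPKM of 64.3 in H460 TS cells and 8.17 to 25.9 in parental cells, and 38.0 in A549 TS against 11.6 in 2D cells. Its fitted log2 difference was 1.92 (SE 0.41, adjusted p = 0.171 by edgeR). SREBF2 was 37.6 in H460 TS and 17.7 to 29.4 in parental cells, and 36.7 in A549 TS against 18.7 in 2D cells. INSIG2 was 5.35 in H460 TS cells, little above the parental maximum of 5.18, and 6.94 in A549 TS against 2.87 in 2D cells. SCAP was 13.2 in H460 TS and 15.6 in A549 TS cells, within or near its 2D values.

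Outside synthesis the differences were mixed in sign. The fitted log2 differences were 1.29 for STARD4, 0.79 for TMEM97, 0.14 for SOAT1, -0.23 for NPC1, -0.28 for NPC2 and -0.40 for MYLIP. PMVK, at -0.07, was the only enzyme with a negative fitted value, with 32.1 in H460 TS cells against 32.9 to 46.9 in parental cells, but 28.9 in A549 TS against 26.6 in 2D cells. NPC2 had 17.5 in H460 TS cells, below the parental 23.2 to 36.7, but 56.0 in A549 TS against 47.7 in 2D cells. MYLIP had 1.71 in H460 TS against 2.47 to 2.85 in parental cells and 1.93 in A549 TS against 2.04 in 2D cells.

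**Figure D3:**
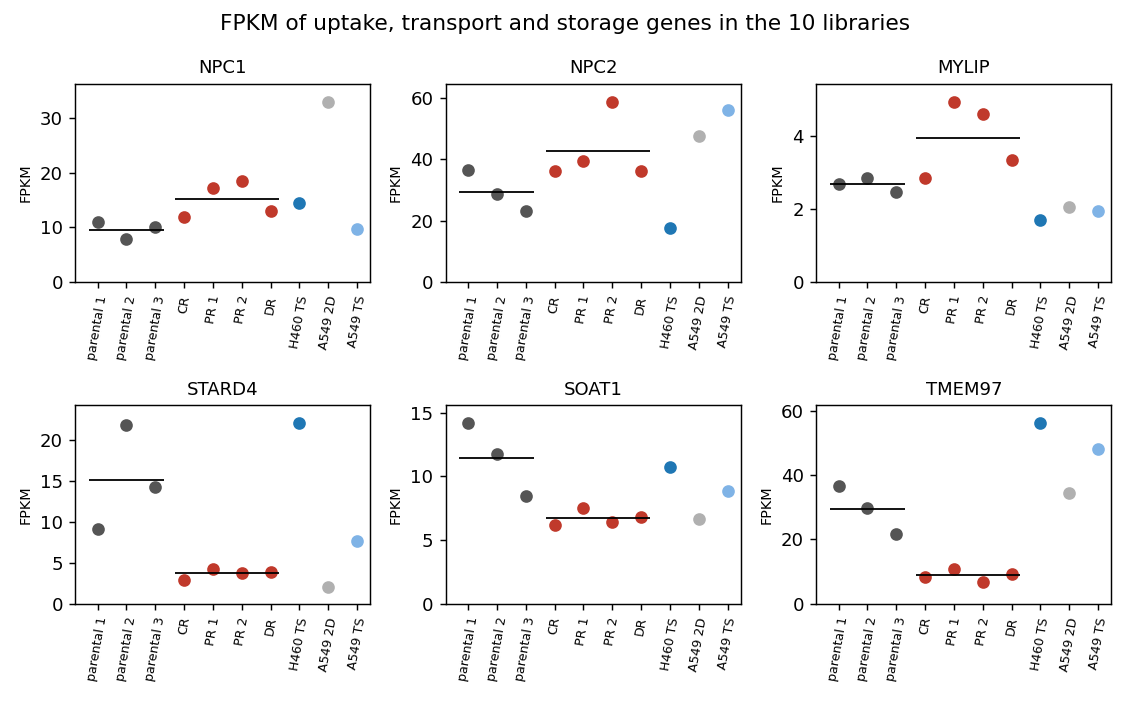
FPKM (linear axes from 0) of the 6 uptake, transport and storage genes in each of the 10 libraries, with 1 point per library and black lines at the means of the parental and drug-resistant groups. STARD4 and TMEM97 drop in the 4 drug-resistant libraries, while NPC1 of A549 stands at 33.0 in 2D and 9.70 in TS cells.

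Whether the lines differed in their TS values was compared next. The difference of H460 TS from parental cells was larger than that of A549 TS from A549 2D cells for 21 of the 29 genes and for 17 of the 19 enzymes, against 51.5% of all genes tested. The edgeR interaction of culture and line called 0 of the 29 genes (0.421% of all genes), with 3 at an unadjusted p under 0.05 (8.02% of all genes), HMGCS1, STARD4 and NPC1. The difference between the lines (A549 minus H460) was -2.04 (SE 0.57, adjusted p = 0.232) for HMGCS1, -2.31 (SE 0.57, adjusted p = 0.173) for NPC1 and 1.68 (SE 0.73, adjusted p = 0.617) for STARD4. DESeq2 called HMGCS1 and NPC1 (adjusted p = 0.0293 and 0.0124). These genes were named after their values were seen. Residual spread came from the 3 parental libraries, and the single TS and A549 libraries were assumed to vary like them. On simulated counts, this edgeR interaction recovered 3% of 2-fold changes, so its 0 calls do not show that the lines responded alike.

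NPC1 had the opposite sign in the 2 lines, with 14.4 in H460 TS cells against 7.78 to 11.0 in parental cells, and 9.70 in A549 TS against 33.0 in A549 2D cells. STARD4 started from a different 2D level, at 2.04 in A549 2D cells against a parental mean of 15.1 in H460 (7.42-fold lower). In TS cells it reached 22.1 in H460, close to parental replicate 2 at 21.9, and 7.62 in A549. The A549 2D level rests on 1 library.

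**Figure D4:**
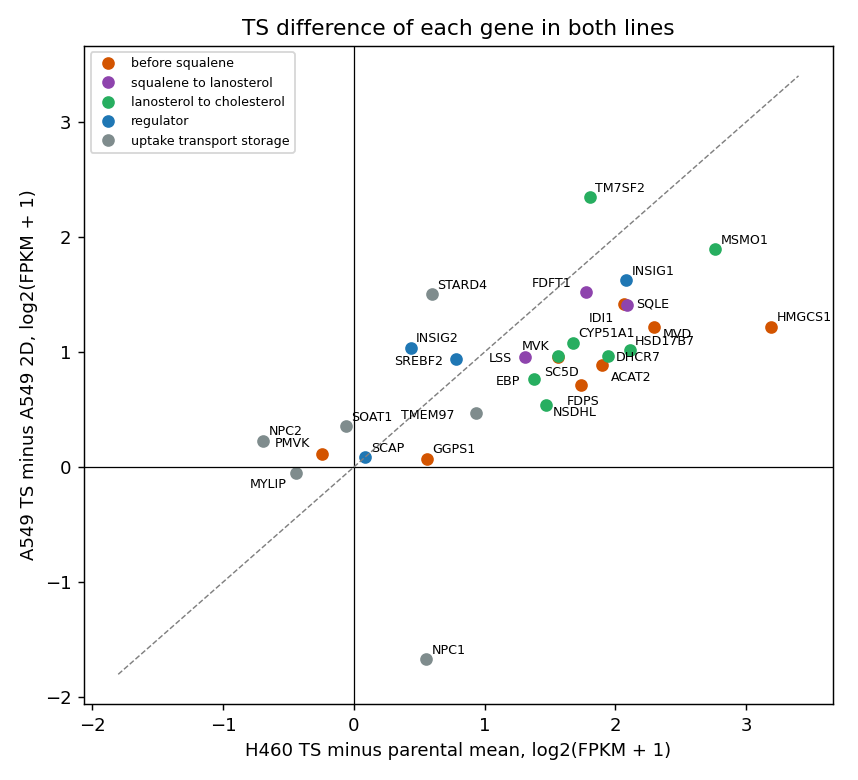
Difference in log2(FPKM + 1) between TS and 2D cells of each of the 29 genes in A549 (vertical axis) against H460 (horizontal axis), coloured by role, with 1 library per line in TS and the dashed line at equal differences. HMGCS1 lies far below the dashed line at 3.19 in H460 and 1.22 in A549, and NPC1 at 0.55 and -1.67.

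**Figure D5:**
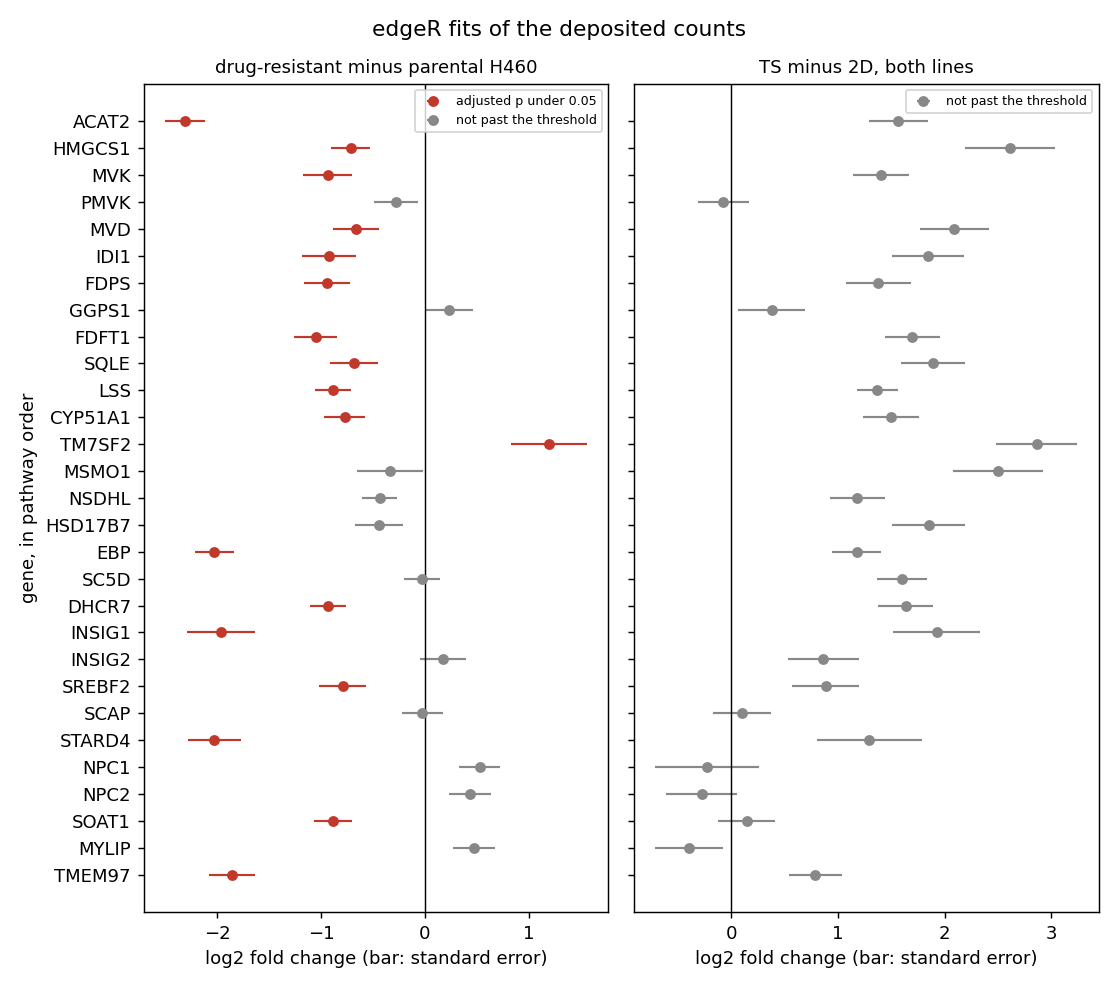
Fitted log2 fold change with standard error of each of the 29 genes by edgeR, for drug-resistant against parental cells (left) and TS against 2D cells (right), in order of role. In the left panel, red points mark the 18 genes past an adjusted p of 0.05, of which TM7SF2 alone is positive with this scaling, and in the right panel 25 of the 29 differences are positive and none passes.

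Lists of neighbouring pathways were counted for comparison, beside the 15.4% of all genes that fell and the 18.4% that rose in drug-resistant cells. Of 11 fatty acid genes known as SREBP targets, 8 fell in drug-resistant cells with a median log2 fold change of -0.82, among them SCD (-1.24, SE 0.21) and ELOVL6 (-1.61, SE 0.22), which desaturate and elongate fatty acids. In TS cells their median was 0.78 with 0 called by edgeR and 4 called higher by DESeq2. Of 12 genes of the non-sterol isoprenoid branch, 3 fell and 1 rose in drug-resistant cells, with a median of -0.30. Those that fell were COQ2 of ubiquinone synthesis (-1.67, SE 0.21), PDSS1 (-1.51, SE 0.29) and RABGGTB (-0.64, SE 0.20). RABGGTA rose (0.68, SE 0.20), and PDSS2 was not called (-0.32, SE 0.20). Of 5 tested genes of the liver X receptor response, 3 rose (ABCG1, SMPDL3A and NR1H2) with a median of 0.76. Of 10 genes of SREBP processing 2 fell, ERLIN1 and PAQR3, and of 11 genes of sterol transport 1 rose.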

How the data were processed

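The authors deposited whole-number read counts per gene without normalization, FPKM values (scaled for transcript length and library size) and TPM values (scaled to the same total per library) for each of the 10 libraries. The submitters' processing notes name bcl2fastq 1.8.4, Trimmomatic, HISAT2 2.1.0 and StringTie 2.1.3b and the build GRCh38, and how reads that fit several genes were counted is not given in the sources used here. TPM was not used further. FPKM gave the levels, and the deposited counts gave the tests.

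Tests used edgeR 4.0.16 in R 4.3.3 (filterByExpr, TMM factors, robust quasi-likelihood) with Benjamini-Hochberg adjustment over all genes and a threshold of 0.05. The contrasts were drug-resistant (n = 4) against parental (n = 3), PR (n = 2) against parental, TS against 2D adjusted for line, the interaction of culture and line, and PR with CR and DR. The spread between drug-resistant libraries includes differences between drugs. SE is the log2 fold change divided by the square root of the F statistic. The scripts were tested on simulated counts with 200 changed genes. The simulation gave every gene the same dispersion (scatter beyond counting noise) and no other difference between lines or drugs. Its shares hold for that setting, which the real counts need not share. For TS against 2D cells, 9.5% of the simulated calls by DESeq2 were of unchanged genes, against 4.7% by edgeR. For drug-resistant against parental cells these shares were 12.1% and 5.7%, and for the interaction 6.4% and 3.4%. In the interaction, edgeR recovered 3% of the simulated 2-fold changes and 53% of the 4-fold changes.

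The alternatives were DESeq2 1.42.0, upper-quartile factors, no filter on low counts, limma-trend (limma 3.58.1) on log2(FPKM + 1) and log2(FPKM + 0.1), a covariate for the form of the library name, a replicate block, H460 alone, and each library left out. A fit of all 10 libraries was added after seeing the data. The genes and the lists were chosen with earlier results of these data known. All 29 genes are named, with values in every library for those with the largest change in each role and those against the majority. Depth was at least 59499787 counts per library. Positions came from GENCODE 29.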

Additional observations from a re-analysis of the deposited data

Results flagged for a closer look

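NPC2, which takes part in moving cholesterol out of the lysosome, had an FPKM of 58.9 in PR replicate 2, while the other 3 drug-resistant libraries had between 36.3 and 39.4. The gap to the nearest library was 0.862 of the whole range, above Dixon's 95% critical value for 4 samples. Chance passes this limit in about 1 of 20 groups, and 29 genes were examined in this way.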

How the results depend on the processing

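Direction and side of the threshold held in 314 of the single-gene values for drug-resistant against parental cells under the alternatives, 39 were no longer past it, 9 were newly past it and 15 changed sign. Every gene that changed sign was not called in the edgeR fit: SC5D gave 0.15 with upper-quartile factors and 0.070 and 0.090 with limma-trend on log2(FPKM + 1) and log2(FPKM + 0.1), and SCAP gave 0.14, 0.11 and 0.12, and 0.12 with the name form as a covariate. With 1 library left out, the log2 fold changes ranged from -0.031 to 0.48 for GGPS1, -0.69 to 0.13 for MSMO1, -0.19 to 0.021 for SC5D, -0.00037 to 0.41 for INSIG2 and -0.20 to 0.17 for SCAP. The genes called ranged from 11 to 18 of the 29, the 11 without parental replicate 2.

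For PR against parental cells, 2 to 16 of the 29 genes and 1008 to 6591 of all genes were called with 1 library left out (13 and 5466 with all), and limma-trend called 3026 genes. PR and parental libraries both carry the numbers 1 and 2. Deviations of same-numbered libraries correlated at 0.0797 over 19430 genes. With only 2 pairs, this cannot decide whether the numbers pair the samples. With the replicate block 18 of the 29 genes and 6648 of all genes were called, against 16 and 6591 without it on the same 4 libraries.

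For TS against 2D cells, where edgeR called 35 of all genes and 0 of the 29, DESeq2 called 537 and 18, no filter 70 and 1, limma-trend on log2(FPKM + 1) 1 of the 29, limma-trend on log2(FPKM + 0.1) 19 and 1, H460 alone 365 and 16, and all 10 libraries in one fit 557 and 16. With 1 parental library left out, 5 to 36 of all genes were called, the lowest 2 counts being 5 without parental replicate 2 and 10 without parental replicate 3. PMVK ranged from -0.093 to 0.0017, and H460 alone turned NPC1 to 0.58 and SOAT1 to -0.083. For the interaction of culture and line, edgeR called 84 genes, DESeq2 542 with 2 of the 29, and limma-trend 27. With 1 parental library left out, edgeR called 104 to 617 genes for this interaction. Between PR and CR with DR, edgeR called 48 genes, DESeq2 1908 with 1 of the 29, upper-quartile factors 544, no filter 1103 and limma-trend 143, and 0 to 942 with 1 library left out. The cause was not tested. TS and A549 groups hold 1 library each, so none of these libraries was left out.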

Other observations

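Of 19 pseudogenes named after the genes described here, 7 had a count of 0 in every library. HSD17B7P2 reached 287 counts in A549 TS cells, 20.3% of the count of HSD17B7 in that library, so reads shared by this pair may be split in the deposited counts. FDPSP3 came next, at 0.107% of the count of FDPS.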
